A study of Mus musculus with 7 samples.

Results

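TAD anchors are the CTCF sites that the authors placed at the borders of topologically associating domains (TADs), the stretches of chromosome within which contacts are most frequent. The TAD anchors described here carried the cohesin subunit Rad21 in mouse liver but had no called peak of the topoisomerase Top2b. They were chosen by 2 readouts, an overlap of at least 1 bp with a peak of the pooled Rad21 list and a Top2b flag of 0 in the authors' list of classed CTCF sites, on chromosomes 1 to 19. This gave 1249 Top2b-negative TAD anchors, out of 5282 TAD anchors with Rad21, 5722 TAD anchors and 51203 classed CTCF sites on these chromosomes (52436 with the sex chromosomes). Over all classed sites on these chromosomes, 44.9% had no Top2b flag and 81.8% overlapped a Rad21 peak. Since both properties set the rule, neither is read as a result.

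The study mapped CTCF and cohesin in liver by ChIP-seq, in which DNA fragments crosslinked to a protein are recovered with an antibody and sequenced, in a search for the CTCF sites that bound chromatin domains and loops. All 7 libraries came from livers of untreated male Crl:CD1(ICR) mice, an outbred strain, aged 8 weeks; 4 used an antibody to CTCF and 3 an antibody to Rad21. The authors merged the libraries of each factor before calling peaks, so each site has 1 value per factor, no spread between mice can be given, and differences are judged over sites and over the 19 chromosomes. Flags for Stag1, Stag2 and Top2b mark overlap with peaks of public liver ChIP-seq data from other mice. A flag of 0 therefore means that no peak was called there at the depth of those data, which is not given in the sources used here. The pooled lists held 76683 CTCF peaks and 67369 Rad21 peaks, with medians of 69 and 47 fragments at the summit.

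CTCF is a zinc finger protein that binds a directional DNA motif. Cohesin is a ring-shaped complex that contains Rad21 and either Stag1 or Stag2, and in the loop extrusion model it draws DNA through itself until it meets CTCF sites that face each other. Top2b is a type II topoisomerase, an enzyme that passes DNA strands through each other to release twists and tangles, and it is known to be found beside CTCF and cohesin. The main comparison below is with the 4033 TAD anchors that carried Rad21 and Top2b, called Top2b-positive. A second comparison is with the 413 TAD anchors that had neither a Rad21 peak nor a Top2b flag.

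Sequences of 2 kinds of Top2b-negative anchors are shown as examples of the promoter sites and of the sites in repeated DNA described below, which made up 73 and 126 of the 1249. Each is given 5′ to 3′ on the strand of the motif, from mm9, with the 19 bp CTCF motif in capitals. The first kind lay in CpG-rich DNA at transcription starts, and the following sites are among those with the strongest CTCF or Rad21 peaks.
Dnajc11, chr4:151307725-151307793, plus strand: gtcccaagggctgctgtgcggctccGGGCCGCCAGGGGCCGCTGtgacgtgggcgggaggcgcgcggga
Sdk1, chr5:141717249-141717317, plus strand: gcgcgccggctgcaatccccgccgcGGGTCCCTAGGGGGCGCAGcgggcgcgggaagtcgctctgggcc
Scaf11, chr15:96291392-96291460, plus strand: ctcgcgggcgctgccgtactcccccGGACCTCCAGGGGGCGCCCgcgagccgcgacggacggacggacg
Epb4.1l4b, chr4:57156597-57156665, minus strand: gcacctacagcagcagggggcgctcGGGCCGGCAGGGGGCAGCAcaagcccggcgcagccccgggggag
Irs1, chr1:82288279-82288347, minus strand: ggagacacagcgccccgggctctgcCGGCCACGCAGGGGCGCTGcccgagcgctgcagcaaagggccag

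The second kind lay in repeated DNA, defined as sites where at least 50% of the 16-base words in the 200 bp around the CTCF summit occurred 10 or more times in the genome. The strongest of these by CTCF score have motifs that are nearly alike, in flanks that resemble each other over part of their length. The names are those of the gene with the nearest transcription start.
Taf9, chr13:101430007-101430075, minus strand: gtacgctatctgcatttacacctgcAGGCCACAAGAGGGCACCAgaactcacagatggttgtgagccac
Snhg11, chr2:158205656-158205724, minus strand: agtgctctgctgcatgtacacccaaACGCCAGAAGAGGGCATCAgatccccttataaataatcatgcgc
Gpr12, chr5:147388414-147388482, plus strand: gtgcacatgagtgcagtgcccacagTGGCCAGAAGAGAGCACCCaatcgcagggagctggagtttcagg
Gm6792, chr7:6217448-6217516, plus strand: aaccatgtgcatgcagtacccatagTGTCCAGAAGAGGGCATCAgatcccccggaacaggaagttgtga
Zfp507, chr7:36644788-36644856, minus strand: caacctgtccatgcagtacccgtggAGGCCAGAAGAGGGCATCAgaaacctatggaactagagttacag

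Top2b-negative anchors had weaker CTCF peaks than Top2b-positive anchors. The CTCF score, 10 times the −log10 of the q-value of the peak, ranged from 159 to 24695 with a median of 1331 (quartiles 761 and 2233), against a median of 3091 (quartiles 2005 and 4476). The number of CTCF fragments at the summit, recovered from the deposited fold and −log10 p, had a median of 172 against 337. A randomly taken Top2b-negative anchor exceeded a Top2b-positive one in CTCF score with a probability (AUC) of 0.211, where 0.5 means no difference (D = 0.459, n = 1249 and 4033 sites, Kolmogorov-Smirnov test, Benjamini-Hochberg adjusted p = 5.31e-183). The median was lower on all 19 chromosomes, with a mean difference of −1802 ± 212 (SD over chromosomes). The groups overlapped, as 167 Top2b-negative anchors (13.4%, 95% Wilson interval 11.6 to 15.4) lay above the Top2b-positive median in CTCF fragments.

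The Rad21 peaks were weaker as well. Their score had a median of 243 (quartiles 114 and 452) at Top2b-negative anchors and of 1045 (quartiles 521 and 1818) at Top2b-positive anchors, with medians of 51 and 136 fragments at the summit (n = 1249 and 4033, AUC = 0.153, D = 0.551, adjusted p = 2.53e-271, lower on 19 of 19 chromosomes). The Rad21 peaks were also narrower, with a median width of 369 bp against 494 bp. Rad21 was lower relative to CTCF too. Top2b-negative anchors had a median of 31.5 Rad21 fragments per 100 CTCF fragments and Top2b-positive anchors 44.8, which are log2 ratios of −1.67 and −1.16 (n = 1249 and 4033, AUC = 0.362, adjusted p = 3.94e-46, lower on 19 of 19 chromosomes, mean difference −0.497 ± 0.164 SD), and within the bins of CTCF fragments described below the AUC was 0.249. As the factors were sequenced in separate libraries, only the difference between groups in this ratio has a meaning, not its level. Only 74 Top2b-negative anchors (5.92%, interval 4.75 to 7.37) exceeded the Top2b-positive median in Rad21 fragments. Across sites, Spearman's rho between CTCF and Rad21 fragments was 0.482 at the 1249 Top2b-negative anchors and 0.531 at the 4033 Top2b-positive ones, a description over sites that share the same pooled libraries.

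**Figure D1:**
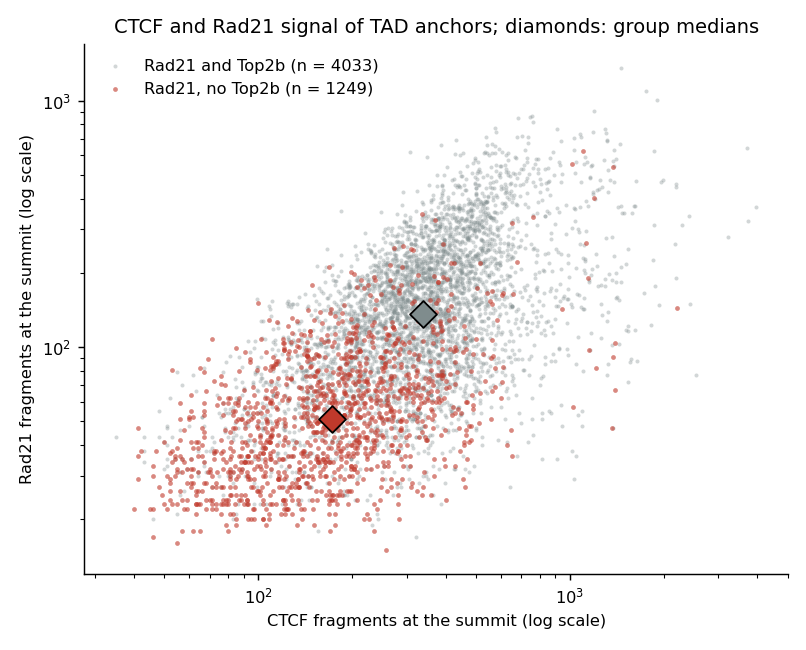
CTCF fragments (x axis, log scale) against Rad21 fragments (y axis, log scale) at the summits of TAD anchors with Rad21, 1 point per site, red for the 1249 Top2b-negative and grey for the 4033 Top2b-positive anchors, with group medians as diamonds. The red median sits at 172 CTCF and 51 Rad21 fragments, below and to the left of the grey median at 337 and 136, and a few red points lie far to the right with few Rad21 fragments.

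Since both factors were weaker, the anchors with Rad21 were sorted by CTCF fragments into 10 bins of nearly equal size. Among the weakest, with a median of 86 CTCF fragments, 64.4% had no Top2b flag (337 of 523, interval 60.2 to 68.4). The share fell bin by bin to 25.9% in bin 4 (median of 231 fragments) and to 5.28% in bin 10 (28 of 530, median of 783 fragments, interval 3.68 to 7.53). Sorted by Rad21 fragments instead, the share went from 73.1% (median of 29 Rad21 fragments) to 1.50% (median of 381). The flag comes from other data with their own detection limit, and its dependence on the depth of those data was not tested.

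At equal CTCF signal, Top2b-negative anchors still had fewer Rad21 fragments, in every one of the 10 bins. The medians were 35 against 49.5 in the weakest bin, 61 against 117 in bin 4 and 71 against 220 in bin 9, so that Top2b-positive anchors had 1.41 to 3.10 times the Rad21 fragments of Top2b-negative ones. Within the bins the AUC for the Rad21 score was 0.239 (n = 1249 and 4033 sites, stratified rank test, adjusted p = 9.41e-136). At equal Rad21 signal the CTCF score was also lower, with an AUC of 0.381 within 10 bins of Rad21 fragments (n = 1249 and 4033 sites, stratified rank test, adjusted p = 3.39e-26), a setting chosen after seeing the data. In the 4 Rad21 bins with the most fragments the order of the CTCF medians was mixed, and those bins held 8 to 32 Top2b-negative anchors each.

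**Figure D2:**
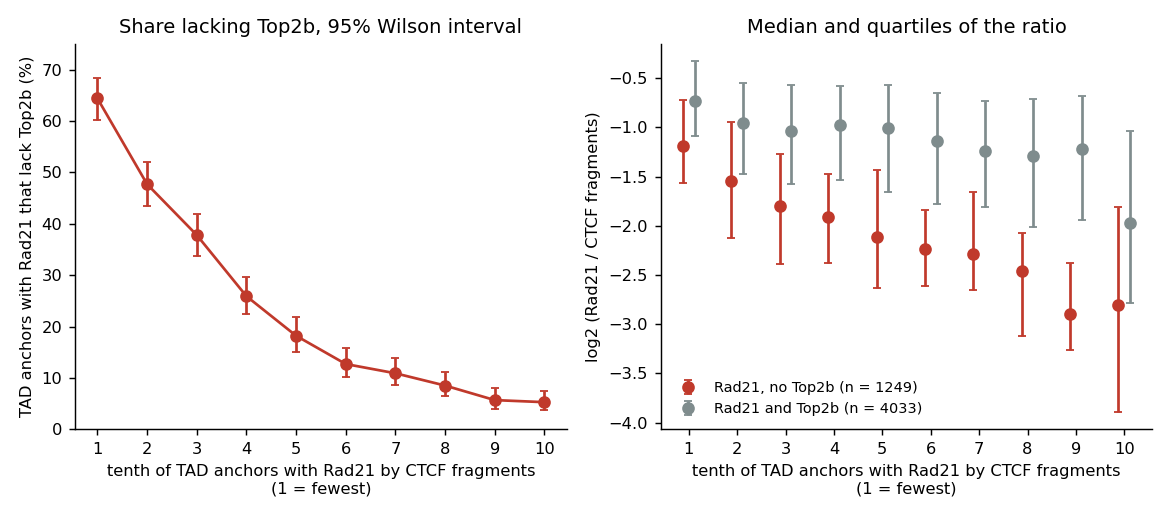
TAD anchors with Rad21 in 10 bins of CTCF fragments (x axis, bin 1 the fewest). The left panel gives the share without a Top2b flag in percent with 95% Wilson intervals, which goes from 64.4% to 5.28%, and the right panel the median and quartiles of the log2 ratio of Rad21 to CTCF fragments, where the red Top2b-negative medians lie below the grey Top2b-positive medians in all 10 bins.

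The Top2b-negative anchors with the strongest CTCF peaks lay at promoters, and the number of Rad21 fragments for their CTCF signal varied. The strongest, at chr4:151307497-151308035 in mm9, 36 bp upstream of the nearest start of Dnajc11, which codes for a mitochondrial protein of the DnaJ chaperone family, had 2209 CTCF fragments (score 24695) and 144 Rad21 fragments (score 823). That is 6.52 Rad21 per 100 CTCF fragments, against the group median of 31.5. Next by CTCF score came chr5:141717016-141717713, 173 bp upstream of Sdk1, a cell adhesion molecule of the immunoglobulin superfamily, with 1373 CTCF fragments. Unlike the first, this site also had the highest Rad21 score of all Top2b-negative anchors, 5282, with 536 fragments, or 39.0 per 100 CTCF fragments. The site 58 bp upstream of Ccdc122 on chromosome 14 (77436212 to 77436808), in a UTR exon of the oppositely placed gene model 9030625A04Rik, had 1400 CTCF and 104 Rad21 fragments. The site 167 bp upstream of Scaf11, a splicing-related gene, on chromosome 15 (96291028 to 96291624) had 1380 CTCF and 91 Rad21 fragments.

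The 3 sites with the fewest Rad21 fragments per CTCF fragment also lay at starts. Among the 3 lowest were a site 54 bp upstream of E130309D02Rik on chromosome 5 (144076575 to 144077319; 1394 CTCF and 67 Rad21 fragments) and one 99 bp upstream of Polr3a, the largest subunit of RNA polymerase III, on chromosome 14 (25306129 to 25306587; 655 CTCF and 36 Rad21 fragments). Both had a Stag2 and no Stag1 flag. The other sites among the 3 strongest by Rad21 were at starts as well. They lay 332 bp upstream of Epb4.1l4b, with 1106 CTCF and 622 Rad21 fragments, and 349 bp upstream of Irs1, the insulin receptor substrate, with 1014 and 551. These sites had 56.2 and 54.3 Rad21 per 100 CTCF fragments, above the group median of 31.5.

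At the other end, the weakest by CTCF score was a site in an intron of Ntrk2, a neurotrophin receptor, at chr13:59216057-59216417, with 41 CTCF fragments (score 159) and 29 Rad21 fragments. A site between genes 23613 bp from the nearest start, of Itm2b, on chromosome 14 (73761277 to 73761626) had 41 and 36, and a site in a coding exon of Arap1 on chromosome 7 (108552444 to 108552719) had 42 and 38. The highest ratios belonged to weak CTCF sites. A site 35049 bp from Akr1c14, an aldo-keto reductase, had 53 CTCF and 81 Rad21 fragments, one 42838 bp from Rab11fip4 had 71 and 108, and one in an intron of Clec1a, a C-type lectin receptor, had 100 and 151. At the Rab11fip4 site the Rad21 summit lay 636 bp from the CTCF summit, so its ratio compares counts at different positions. At counts this low the counting error alone is wide, so the order of these sites carries little weight.

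Cohesin flags from the public data were less frequent at Top2b-negative anchors. Stag1 peaks overlapped 1056 of 1249 (84.5%, interval 82.4 to 86.4), against 3942 of 4033 Top2b-positive anchors (97.7%), a difference of −13.2 percentage points (95% Newcombe interval −15.3 to −11.2, chi-square test, adjusted p = 1.67e-72). Stag2 peaks overlapped 1183 (94.7%, interval 93.3 to 95.8) against 4027 (99.9%), a difference of −5.14 points (−6.52 to −4.01, chi-square test, adjusted p = 2.79e-42). The share was lower on 19 of 19 chromosomes for either flag. Over all 51203 classed sites on these chromosomes, 70.8% had the Stag1 flag and 88.3% the Stag2 flag. Relative to these shares, Top2b-negative anchors stood above the list as a whole and below their Top2b-positive counterparts. At equal Rad21 signal the Stag1 difference shrank to −3.77 points (Mantel-Haenszel chi-square test, adjusted p = 5.64e-04) and the Stag2 difference to −3.14 (adjusted p = 5.23e-08), whereas at equal CTCF signal they were −10.7 and −4.22. With a CTCF score of at least 500 and a Rad21 score of at least 100 they were −7.36 and −2.54.

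Both flags were present at 1036 Top2b-negative anchors, Stag2 alone at 147 (11.8%), Stag1 alone at 20 and neither at 46 (3.68%, interval 2.77 to 4.88). Among Top2b-positive anchors these combinations numbered 3940, 87, 2 and 4. Seen the other way, Top2b was absent from 20.8% of the anchors with Rad21 and both flags (interval 19.7 to 22.0), from 62.8% of those with Stag2 alone (56.5 to 68.8) and from 92.0% of those with neither (46 of 50, 81.2 to 96.8). The Top2b-negative anchors with Stag2 alone had a median of 34 Rad21 and 151 CTCF fragments, and 15% of them lay within 1 kb of a start, against 4.15% of those with both flags. Those with neither flag had medians of 31.5 Rad21 and 127.5 CTCF fragments. The strongest of them by CTCF score lay in a coding exon of Neto2, 107 bp downstream of its start, with 448 CTCF and 54 Rad21 fragments, in a UTR exon of Llph with 398 and 33, and 10589 bp from Rpl38 with 218 and 20.

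Against the 413 TAD anchors with neither Rad21 peak nor Top2b flag, Top2b-negative anchors with Rad21 stood higher. The CTCF score had a median of 1331 against 502 (n = 1249 and 413, AUC = 0.815, D = 0.511, adjusted p = 3.94e-75, higher on 19 of 19 chromosomes). Stag1 was flagged at 84.5% against 31.2%, a difference of 53.3 points (48.2 to 58.0, chi-square test, adjusted p = 6.27e-95), and Stag2 at 94.7% against 52.1%, a difference of 42.7 points (37.7 to 47.6, adjusted p = 3.16e-93). The Stag flags and the Rad21 peaks mark subunits of the same complex in different mice. These differences and their p-values can therefore not be read apart from the Rad21 peak that separates the groups. How far they follow from it was not tested. The motif score was only slightly higher, 17.00 against 16.38 (n = 1249 and 413, AUC = 0.560, adjusted p = 5.62e-04), and within bins of CTCF fragments the AUC was 0.503 (adjusted p = 0.886).

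**Figure D3:**
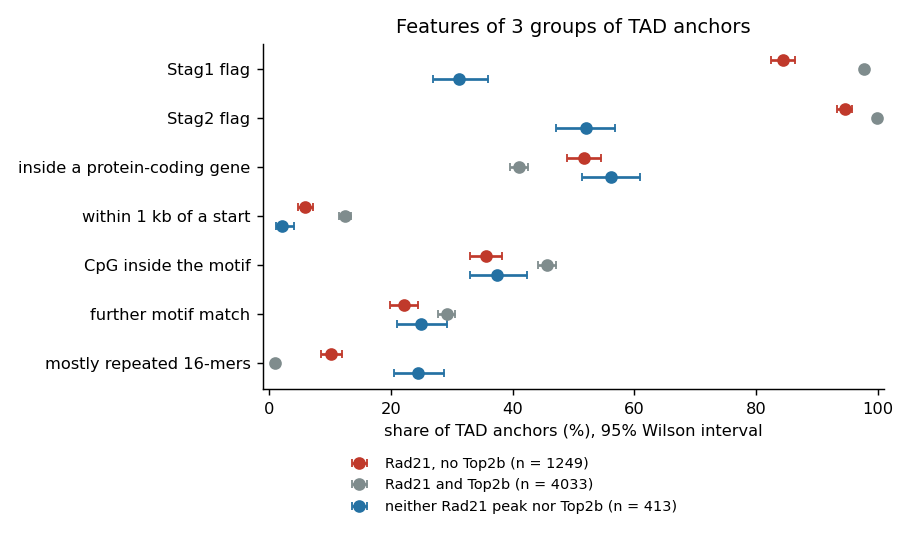
Share in percent (x axis) of the Top2b-negative (red), Top2b-positive (grey) and Rad21- and Top2b-lacking (blue) TAD anchors that have each of 7 features, with 95% Wilson intervals. The red points lie between the others for the Stag1 and Stag2 flags, starts within 1 kb, sites inside protein-coding genes and repeated sequence. For repeated sequence, for example, they lie at 10.1% between 0.893% and 24.5%.

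The CTCF motif differed less than the peaks. The log-odds motif score had a median of 17.00 at Top2b-negative and 17.97 at Top2b-positive anchors (n = 1249 and 4033, AUC = 0.449, adjusted p = 1.22e-08, lower on 18 of 19 chromosomes). With CTCF signal held equal this turned round, to an AUC of 0.543 (n = 1249 and 4033 sites, stratified rank test, adjusted p = 6.23e-05). In the weakest bin Top2b-negative anchors had a median motif score of 16.3 against 13.7, and in bin 9 of 16.7 against 18.9. The motif lay on the plus strand at 49.7% of the Top2b-negative anchors. Among those inside a single protein-coding gene it lay on the strand of that gene at 47.4% (302 of 637, interval 43.6 to 51.3), and among Top2b-positive anchors at 46.3% (43.9 to 48.7). A further match to the motif in the same peak was found at 22.1% against 29.2% (difference −7.06 points, −9.69 to −4.31, chi-square test, adjusted p = 1.38e-06), and over the 42307 classed sites with a motif at 29.0%. At equal CTCF signal the difference between the groups was −1.44 points (Mantel-Haenszel chi-square test, adjusted p = 0.415).

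Rad21 summits were displaced towards the 3′ side of the motif in both groups. Along the motif strand, the Rad21 summit lay a median of 17 bp downstream of the CTCF summit at Top2b-negative anchors (quartiles −4 and 41) and 21 bp at Top2b-positive anchors (quartiles 2 and 38). The distributions differed slightly (n = 1249 and 4033, D = 0.0673, AUC = 0.482, adjusted p = 4.23e-04), but the median was lower on only 12 of 19 chromosomes. Within the bins of CTCF fragments the difference did not pass the test (n = 1249 and 4033 sites, stratified rank test, adjusted p = 0.0840), and at equal Rad21 signal its direction reversed (AUC = 0.531). Relative to the centre of the motif, the CTCF summit had a median position of −6 bp and the Rad21 summit of 18 bp, against −10 and 17 bp. Summits of both factors lay within 100 bp of each other at 95% of Top2b-negative anchors.

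**Figure D4:**
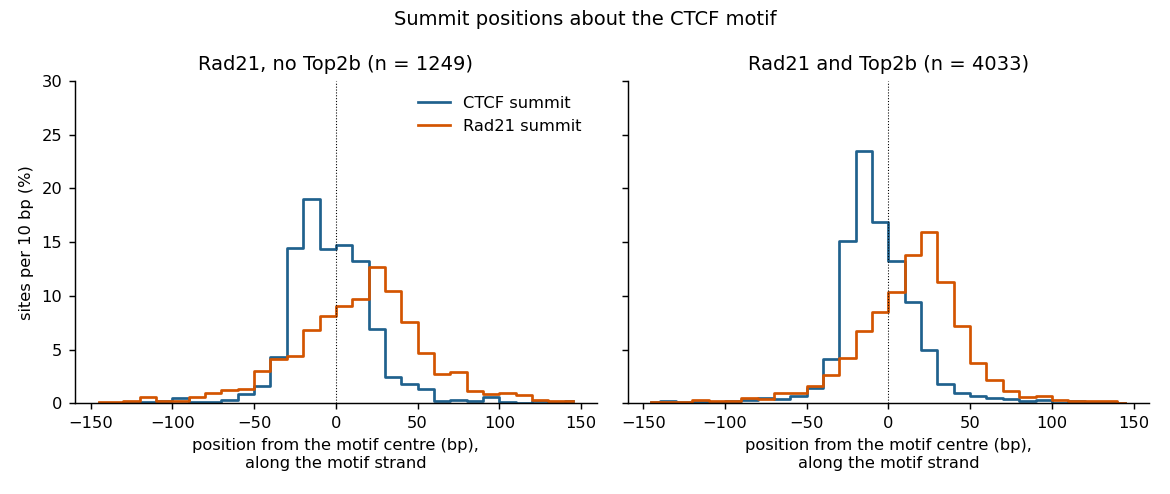
Position of CTCF summits (blue) and Rad21 summits (orange) relative to the centre of the CTCF motif, in bp along the motif strand (x axis), as the percentage of sites per 10 bp (y axis), for the 1249 Top2b-negative anchors on the left and the 4033 Top2b-positive anchors on the right. In both panels the orange curve lies to the right of the blue one, with Rad21 medians of 18 and 17 bp, and the curves on the left are lower and wider.

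The DNA around Top2b-negative anchors was poorer in GC. In the 200 bp around the CTCF summit the GC content had a median of 44.5% against 49.0% (n = 1249 and 4033, AUC = 0.337, D = 0.245, adjusted p = 2.46e-50, lower on 19 of 19 chromosomes). Held to equal CTCF signal the AUC was 0.411, and without the sites near starts it was 0.341, nearly the value with them. The median was lower at Top2b-negative anchors in bins 1 to 9 of CTCF fragments. In bin 10 it was higher, 70.5% (of 28 sites) against 57.8%. Over 100 kb the medians were 44.03% and 44.12%, and the small difference there (n = 1249 and 4033, AUC = 0.481, adjusted p = 0.0119) reversed at equal CTCF signal (AUC = 0.557). CpG dinucleotides, where DNA can be methylated, lay inside the motif at 35.6% of Top2b-negative and 45.6% of Top2b-positive anchors (difference −9.97 points, −13.0 to −6.87, chi-square test, adjusted p = 7.90e-10). Over the 42307 classed sites with a motif the share was 44.5%. Within the bins of CTCF fragments the difference between the groups was 0.382 points (Mantel-Haenszel chi-square test, adjusted p = 0.886), and at equal Rad21 signal −6.60. The CpG at motif positions 15 and 16, counted from 1 at the 5′ end, was present at 27.9% against 33.4%, and that at positions 5 and 6 at 5.04% against 8.18%. CTCF peaks themselves were narrower, with a median width of 444 bp against 490 bp (n = 1249 and 4033, AUC = 0.337, adjusted p = 4.69e-73).

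Repeated sequence was the DNA feature with the largest relative difference among those compared. Around 126 of 1249 Top2b-negative anchors (10.1%, interval 8.54 to 11.9) at least 50% of the 16-base words were repeated in the genome, against 36 of 4033 Top2b-positive anchors (0.893%, 0.645 to 1.23). The difference of 9.20 points (7.61 to 11, p = 6.10e-61, chi-square test outside the family of adjusted tests) had the same sign on 19 of 19 chromosomes. At equal CTCF signal it was 8.47 points and at equal Rad21 signal 8.22. The measure was chosen after the planned one, repeat-masked bases, could not be had. Of the 162 TAD anchors with Rad21 in such DNA, 77.8% had no Top2b flag (70.8 to 83.5), against 23.6% of all. The share was 24.5% (101 of 413) at TAD anchors with neither Rad21 nor Top2b, and 8.12% over all classed sites. The Top2b-negative share lay slightly above that of all classed sites, and the Top2b-positive share far below it. Only reads with a unique position had been kept, and the part that mapping in such DNA plays in any of the peaks or flags was not tested.

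The 123 Top2b-negative anchors in repeated DNA and over 1 kb from a start had nearly the CTCF signal of the remaining 1053, with medians of 166 and 169 fragments, but somewhat less Rad21, 41 against 52. The strongest lay in an intron of Taf9, a subunit of the general transcription factor TFIID, with 559 CTCF and 90 Rad21 fragments. A site in an intron of Snhg11, a host gene of small nucleolar RNAs, had 610 and 83, and a site 8378 bp from the start of Gpr12, a G protein-coupled receptor, had 378 and 183. In an intron of the gene model Gm6792 a site had 465 CTCF but 46 Rad21 fragments and no Stag1 flag, and a site 56809 bp from Zfp507, a zinc finger gene, had 365 and 118. These 5 were named by a rule added after their values were seen.

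Many motifs of the repeated anchors shared a common core. The most frequent base at each of motif positions 4 to 15 among the repeated TAD anchors with neither Rad21 nor Top2b gave the word CCAGAAGAGGGC, searched only on the motif strand at those positions. It was present at 166 Top2b-negative anchors (13.3%, interval 11.5 to 15.3) and at 100 Top2b-positive anchors (2.48%, 2.04 to 3.01). Of all classed sites with a motif 12.1% had it, which is near the Top2b-negative share and far above the Top2b-positive one. Among all 413 TAD anchors with neither Rad21 nor Top2b, repeated or not, 28.8% had it. Of the repeated Top2b-negative anchors, 77 of 126 had it (61.1%, 52.4 to 69.2), and of the 5 printed above those near Taf9 and Gpr12 did not. Outside repeated DNA, it was still found at 89 of 1123 Top2b-negative anchors (7.93%, 6.48 to 9.65). Of all TAD anchors with Rad21 and this word, 62.4% had no Top2b flag (56.4 to 68.0). Copies of the B2 family of short interspersed elements are known to carry CTCF motifs in the mouse, but no repeat annotation was used here and the words were assigned to no family.

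Single motif positions differed along the same lines. Position 1 was A at 31.1% of Top2b-negative and 13.6% of Top2b-positive anchors, position 7 was G at 47.6% and 36.3%, position 8 was A at 32.7% and 18.7%, position 12 was G at 68.6% and 52.5%, and position 17 was T at 16.2% and 5.38%. Without the sites in repeated DNA these shares were 25.5% and 12.9%, 43.3% and 35.9%, 26.8% and 18.1%, 65.6% and 52.2%, and 13.3% and 5.05%. The differences became smaller but kept their direction at these 5 positions, which were picked for their size and not tested.

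Top2b-negative anchors lay within 1 kb of the start of a protein-coding transcript less often, at 73 sites (5.84%, interval 4.67 to 7.29) against 501 (12.4%, 11.4 to 13.5), a difference of −6.58 points (−8.15 to −4.83, chi-square test, adjusted p = 1.12e-10, lower on 19 of 19 chromosomes). It was −12.6 points at equal Rad21 signal and −3.33 points for a zone of 5 kb around the start. Its direction was not the same at all strengths, as Top2b-negative anchors lay at a start less often than Top2b-positive ones in bins 1 to 5 of CTCF fragments and more often in bins 6 to 10. In the weakest bin of CTCF fragments 2.97% of Top2b-negative and 29.6% of Top2b-positive anchors lay at a start, in bin 6 the shares were 7.46% (of 67) and 6.09%, and in the strongest bin 57.1% (of 28) and 35.3%. Over all classed sites the share was 21.9%, above that of both groups. The distance to the nearest start had medians of 21483 and 20611 bp, and its difference (n = 1249 and 4033, AUC = 0.517, adjusted p = 5.62e-04) was lost without the sites within 1 kb (AUC = 0.480, adjusted p = 0.224).

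More of the Top2b-negative anchors lay inside protein-coding genes, 647 (51.8%, 49.0 to 54.6) against 1658 (41.1%), a difference of 10.7 points (7.53 to 13.8, chi-square test, adjusted p = 5.08e-11, higher on 16 of 19 chromosomes). Over all classed sites the share was 55.7%, which lay above both groups and nearer to the Top2b-negative one. Within the bins of CTCF fragments the difference between the groups was 6.03 points (Mantel-Haenszel chi-square test, adjusted p = 0.00111) and at equal Rad21 signal 3.76 (adjusted p = 0.0494). By annotation, 575 lay in introns (46.0%), 602 between genes (48.2%), 39 in UTR exons and 33 in coding exons. The number of other CTCF peaks within 50 kb had a median of 5 in both groups and did not pass the test (n = 1249 and 4033, AUC = 0.523, adjusted p = 0.117), though it did at equal CTCF signal (AUC = 0.555, adjusted p = 1.71e-07). By chromosome, the share of TAD anchors with Rad21 that had no Top2b flag ran from 14.9% on chromosome 10 (42 of 282, 11.2 to 19.5) to 30.6% on chromosome 5 (92 of 301, 25.6 to 36.0).

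The 73 promoter sites differed from the other Top2b-negative anchors. They had medians of 308 CTCF and 61 Rad21 fragments, or 24.4 Rad21 per 100 CTCF fragments, a GC content of 62.0% and 12 CpGs in 200 bp, and 60.3% had the Stag1 flag. The 501 Top2b-positive promoter sites had the same median GC content, 62.0%, with 384 CTCF and 95 Rad21 fragments, 29.1 per 100, and 88.8% had the Stag1 flag. At sites outside promoters and repeats the medians were 169 against 334 CTCF and 52 against 142 Rad21 fragments, and 87.0% against 99% had the Stag1 flag. The promoter groups thus lay closer together in these medians and further apart in the Stag1 share, differences that were not tested. The summit lay upstream of the start at 37 of the 73 sites (50.7%, 39.5 to 61.8) and at 61.1% of the Top2b-positive ones (56.7 to 65.2).

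**Figure D5:**
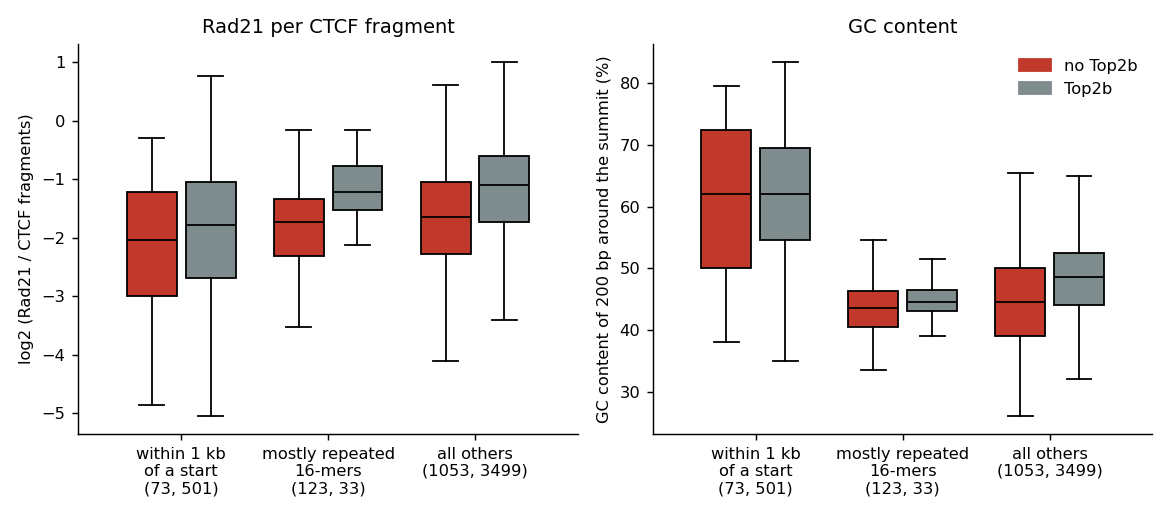
Log2 ratio of Rad21 to CTCF fragments (left) and GC content in percent of the 200 bp around the CTCF summit (right) for 3 kinds of TAD anchors with Rad21, red without and grey with Top2b, with the numbers of sites in brackets. Boxes give the median and quartiles and whiskers reach the last value within 1.5 box lengths. The median log2 ratio is lower without Top2b in each kind, −2.04 against −1.78 at starts, −1.73 against −1.21 in repeated sequence and −1.65 against −1.10 elsewhere.

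Most Top2b-negative anchors had a partner, a nearby TAD anchor in divergent order. At each TAD border the authors kept a divergent pair of CTCF sites where a valid one existed, and a single site otherwise. The presence of a partner is therefore largely set by how TAD anchors were chosen, and its share is given as a description. Of the 1249, 944 (75.6%, interval 73.1 to 77.9) were next to a TAD anchor in divergent order, with a minus-strand motif followed by a plus-strand motif, under 50 kb away, and 69.3% of the Top2b-positive anchors were (67.9 to 70.7). The Top2b flag of the partner was the measure used by the rule and is given as a description. It was 0 for 295 of these 944 partners (31.2%, 28.4 to 34.3), and for 880 of the 2796 partners of Top2b-positive anchors (31.5%, 29.8 to 33.2). In the 645 pairs of a Top2b-negative and a Top2b-positive anchor, the Top2b-negative one had fewer CTCF fragments in 515 (79.8%, 76.6 to 82.8), fewer Rad21 fragments in 552 (85.6%, 82.7 to 88.1) and a lower ratio of Rad21 to CTCF in 413 (64.0%, 60.3 to 67.6). The medians in these pairs were 169 against 322 CTCF and 52 against 138 Rad21 fragments.

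Pairs in which both anchors had Rad21 and no Top2b numbered 112. In the pair with the highest weaker CTCF score the anchors lay 15008 bp apart in an intron of Rapgef4, which codes for a cAMP-activated exchange factor, with 387 and 359 CTCF and 61 and 81 Rad21 fragments. The next pair lay between genes near Zfp507, 20346 bp apart, with 365 and 467 CTCF and 118 and 60 Rad21 fragments. The third lay at Slc22a18, a transporter gene of an imprinted region, with 1 site 3575 bp upstream of the nearest of the annotated starts of the gene and the other in an intron, 5583 bp downstream of the start nearest to it, and had 586 and 416 CTCF and 129 and 164 Rad21 fragments.

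For genes of the liver, the anchor with Rad21 nearest to a start was looked up in short lists, whose shares are given as a description. Of 5926 protein-coding genes with a TAD anchor with Rad21 within 50 kb of a start, the nearest was Top2b-negative for 1369 (23.1%, interval 22.0 to 24.2). Among plasma protein genes it was 4 of 11, with sites 10290 bp from Vtn (vitronectin; 176 CTCF and 57 Rad21 fragments), 15199 bp from Ahsg (fetuin A; 378 and 184), 27337 bp from Hp (haptoglobin; 260 and 61) and 46557 bp from F2 (prothrombin; 111 and 47). Among hepatocyte transcription factors it was 2 of 6, Cebpb at 8070 bp (388 and 106) and Onecut1 at 14623 bp (93 and 36, with no Stag1 flag). Among urea cycle and gluconeogenesis genes it was 3 of 5, Arg1 at 33794 bp, Pcx at 41905 bp and Tat at 42872 bp. None of 7 genes for CTCF, cohesin and topoisomerase II and none of 3 cholesterol and bile acid genes had a Top2b-negative anchor as the nearest. The lists are short and their intervals include the share of all genes, up to 35.4% for the 7 genes and 56.1% for the 3.

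Among larger families, the shares were 24.0% for Cyp genes (6 of 25, 11.5 to 43.4), 18.2% for Olfr genes (12 of 66, 10.7 to 29.1), 46.7% for Vmn genes (7 of 15, 24.8 to 69.9), 26.7% for Rpl and Rps genes (12 of 45, 16 to 41.0), 26.4% for Zfp genes (19 of 72, 17.6 to 37.6) and 23.4% for Slc genes (25 of 107, 16.4 to 32.2). Genes of a cluster can share 1 anchor, so they are not independent. Olfr556 and Olfr555 did so at 4342 and 6736 bp, and Vmn1r234 and Vmn1r235 at 2961 and 28640 bp. Only the Vmn interval, over pheromone receptor genes, lay above the share of all genes. This interval treats the genes as independent and was not corrected for the number of lists. The closest sites were 1196 bp from Olfr1358, 2961 bp from Vmn1r234, 1076 bp from Zfp169 and 92 bp from Slc44a3, and among P450 genes 4380 bp from Cyp46a1, 7539 bp from Cyp4f16, 9365 bp from Cyp21a1 and 19556 bp from Cyp2j5. The Polr3a site described above was also the nearest to Rps24, at 3536 bp.

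The 1741 intra-TAD anchors with Rad21 and no Top2b, which the authors predicted to anchor loops within TADs and chose partly on CTCF and Rad21 strength, are given as a description. They had medians of 234 CTCF and 75 Rad21 fragments, 33.8 Rad21 per 100 CTCF fragments, a GC content of 47.0% and a Stag1 flag at 89.4%. They resembled the Top2b-negative TAD anchors in repeated sequence (10.9%) and in the word CCAGAAGAGGGC (16.9%), and the 6950 intra-TAD anchors with Rad21 and Top2b had 1.19% and 3.50%.

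At the limit of the rule, the smallest overlaps between the CTCF site and the Rad21 peak were 35 bp, at a site on chromosome 6 (145302348 to 145302719; 76 CTCF and 21 Rad21 fragments), and 77 bp, in an intron of Gpam, which codes for an enzyme of triglyceride synthesis (65 and 23). Just outside lay a site in an intron of Bcat1 with 145 CTCF fragments, 172 bp from the nearest Rad21 peak, and a site in an intron of Ccdc28a with 63 CTCF fragments, 320 bp from one. No site was nearer to the limit than these.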

How the data were processed

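Reads of all libraries of a factor were pooled by the authors, mapped to mm9 with Bowtie2 (unique positions only) and passed to MACS2, after which blacklisted peaks and those resting on PCR duplicates were dropped. Each deposited score is 10 times the −log10 q-value of a peak, without decimals. The deposited fold is a ratio, of summit fragments to local background with a pseudocount of 1, and the deposited −log10 p-value tests the same count. In the class list, made by the authors from peaks found in at least 2 livers, TAD anchors had been chosen by motif, motif strand, presence in all CTCF libraries and distance to a TAD border, which held for all groups compared. Motif scores in it, also deposited, are log-odds of the best match. Its flags of 0 or 1 have no header, so their order rests on the study's listing.

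Fragments were recovered from fold and −log10 p and came out whole (within 0.05 of 1 fragment's step) at 99.996% of CTCF and 99.997% of Rad21 peaks. Intervals cover counting error only. Motif positions were found by rescoring the peaks, which differed from the deposited score by at most 0.055. Genes and bases came from GENCODE vM1 and NCBIM37 (mm9). Kolmogorov-Smirnov and chi-square tests over sites were adjusted together (20 tests, Benjamini-Hochberg), and checked on simulated data. Sites are not replicates of mice. The members, lists and tests were chosen with earlier results of these data known. Sites named were those highest or lowest in score or ratio, the strongest at starts or without Stag flags, the strongest divergent pairs, those at the limit of the rule, and for gene lists the 4 nearest. An item that the rule names is not reported here. The planned share of repeat-masked bases could not be computed because the genome used carries no mask. Tests ran in SciPy 1.17.1 and NumPy 2.4.6, tables in pandas 2.3.3, sequence reading in pysam 0.24.0, word counts in Numba 0.67.0 and plots in Matplotlib 3.10.9 (Python 3.11.15).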

Additional observations from a re-analysis of the deposited data

How the results depend on the processing

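Comparisons with Top2b-positive anchors were repeated, where the setting applied to the measure, with a reciprocal overlap of 50%, summits within 100 bp, bins of CTCF fragments, sites near starts left out, a CTCF score of at least 500 and a Rad21 score of at least 100, chromosome X, 1 site per 50 kb, other units, start zones and gene sets, and, added after seeing the data, bins of Rad21 fragments and sites in repeated sequence left out. Those with anchors lacking Rad21 and Top2b were repeated only with chromosome X, 1 site per 50 kb, repeated sequence left out and, except for CTCF score, bins of CTCF fragments. Of 171 values, 156 kept their direction and side of the threshold. Within bins of CTCF fragments, 4 comparisons with Top2b-positive anchors reversed, motif score (AUC = 0.543), distance to a start (0.498), GC content of 100 kb (0.557) and CpG in the motif (0.382 points). Displacement (0.481) and a further motif match (−1.44 points) then missed the threshold, as did motif score against anchors with neither Rad21 nor Top2b (0.503), and the number of CTCF peaks within 50 kb passed it (0.555). Within bins of Rad21 fragments, motif score (0.522), displacement (0.531) and GC content of 100 kb (0.530) reversed, and the number of CTCF peaks passed the threshold (0.554). Distance to a start reversed without sites near starts (0.480), displacement missed the threshold at the higher score limits (0.481), and GC content of 100 kb at 1 site per 50 kb (0.483). The other causes were not tested, and bins leave a difference in strength within each bin. No paired analysis was possible because the lists hold pooled peaks in which no replicate has values of its own, and for the same reason no replicate could be left out. The share of repeat-masked bases and its alternatives were not run.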
